A study of Laccaria bicolor with 18 samples.

Results

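The change from early to late basidiocarps (fruiting bodies) of the ectomycorrhizal basidiomycete Laccaria bicolor was compared between the cap and the stipe. For each gene model, the log2 change from early to late stipe was subtracted from the log2 change from early to late cap. The difference between these changes is called the interaction here, and it lies above 0 where expression rose more, or fell less, in caps than in stipes. The 12 libraries of early and late caps and stipes entered the comparison, out of 18 libraries in the series. Of 23130 gene models with deposited counts, 16348 had enough reads to be tested and 2968 had different changes in cap and stipe. The strain was S238N in every group, and the basidiocarps formed in a nursery bed on Douglas fir seedlings inoculated with it. The 4 groups were early cap, late cap, early stipe and late stipe, with 3 libraries each, which the labels call biological replicates. Cap and stipe were parted at sampling and frozen in liquid nitrogen, RNA was extracted with CTAB and precipitated with lithium chloride, and poly(A) libraries were sequenced as paired reads. The labels name neither how many basidiocarps went into a library nor whether the cap and the stipe with the same number came from the same basidiocarp, so the p-values measure the spread between these libraries only. The labels give no treatment, and a single strain at a single site was sampled, so the groups stand for that strain in that bed.

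The cap of an agaric mushroom carries the gills, on which basidia undergo meiosis and form spores, whereas the stipe lifts the cap by elongation of cells that are already formed. Both tissues are built of hyphae whose walls are made of chitin and β-glucans, and these walls are loosened, lengthened and later degraded by enzymes such as chitinases and glucanases. Hydrophobins are small secreted proteins that coat aerial hyphae and make their surface water-repellent. Stipe cells stop elongating as a mushroom matures, whereas the gills of the cap go on to release spores.

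Between 39337295 and 90888294 reads per library were counted in the 12 libraries, and expression is given below as CPM, the counts normalized to library size after scaling between libraries by TMM. CPM is not divided by transcript length, so levels are compared between libraries and not between gene models. The closest library to each of the 12, by correlation over all gene models, was a library of the same group. Neither a cap nor a stipe marker is annotated in the files, so the tissue labels could not be checked further. Replicates of late caps were the most alike, with a biological coefficient of variation of 8.25%, against 17.2% in early caps, 22.8% in early stipes and 20.3% in late stipes. Late caps 2 and 3 differed by only 4.05%. With these libraries summed into a single library, 2736 gene models had different changes in cap and stipe, of which 65 changed in opposite directions. The tissues are mixtures of cell types, and in such bulk samples fewer cells of a type and less RNA per cell cannot be told apart. Total RNA per cell was not measured, so a rise or fall is relative to the other transcripts of the same library.

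From early to late, expression shifted towards the cap more often than towards the stipe. An interaction was called where it exceeded 1 in size on the log2 scale with an adjusted p below 0.05. The p-values came from the quasi-likelihood test of edgeR, adjusted by Benjamini and Hochberg's method over all 16348 gene models tested. An interaction was called for 2968 gene models, which is 18.2% of those tested. Of these, 2037 lay above 0 (12.5% of the gene models tested) and 931 below 0 (5.69%). The interaction exceeded 2 in size for 708 of the called gene models and 3 for 199. Over all gene models tested the median interaction was 0.02, with quartiles at -0.47 and 0.60 and a median standard error (SE) of 0.25. By the same thresholds within each tissue, 2643 gene models (16.2%) changed in caps and 3315 (20.3%) in stipes between the early and the late stage.

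Each called gene model was placed by its change within each tissue. The largest class, with 876 gene models, fell in stipes with no call in caps. Its median change was -1.71 in stipes and -0.12 in caps. A further 600 gene models rose in caps with no call in stipes, with medians of 1.73 in caps and -0.07 in stipes. In the other direction, 263 gene models rose in stipes only (here and below, only stands for no call in the other tissue), with a median of 1.39 there and 0.04 in caps, and 230 fell in caps only, with medians of -1.43 in caps and -0.03 in stipes. Without early stipe 3, the number that rose in stipes only was 467. Another 111 rose and 78 fell in both tissues by different amounts. The median changes of those that rose in both were 3.29 in caps and 1.44 in stipes, and of those that fell in both -1.43 in caps and -3.19 in stipes. The remaining 737 gene models passed the threshold for the interaction but not within either tissue, and 404 of them lay below 0. Only 73 gene models changed in opposite directions, 0.447% of those tested. They rose in caps and fell in stipes in 67 cases, and they fell in caps and rose in stipes in 6.

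**Figure D1:**
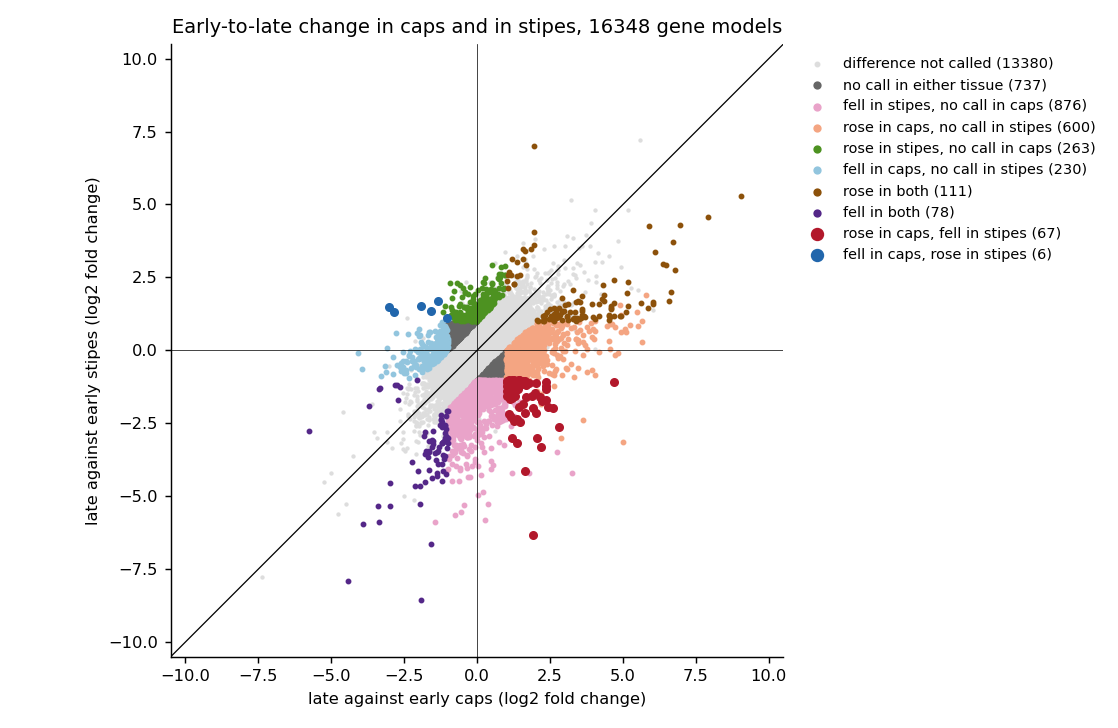
Log2 change from early to late in caps (x axis) and in stipes (y axis) for the gene models tested, coloured by class. Points on the diagonal changed alike in both tissues. The 2037 gene models called above 0 lie below the diagonal and the 931 called below 0 lie above it. The 73 that changed in opposite directions are in the lower right (rose in caps, fell in stipes) and upper left (the reverse) quadrants.

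The libraries of the late stage carried most of the tissue difference. Of the 2968 gene models, 1450 (48.9%) showed no call between early cap and early stipe but higher expression in the cap at the late stage. A further 573 (19.3%) showed no call early and were higher in late stipes. By contrast, 199 were higher in early stipes with no call late, and 82 were higher in early caps with no call late. The order of the tissues turned in few gene models, of which 59 were higher in stipes early and in caps late, and 5 were higher in caps early and in stipes late. For 509 gene models (17.1%) the tissues differed by no call at either stage. These counts come from the same libraries as the interaction and describe it.

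Gene models that rose in caps and fell in stipes included enzymes of glycan and protein processing, secreted proteins and redox proteins. Because both changes had to exceed 1 in size, the interaction of each of the 67 exceeds 2 by construction. The early and late libraries did not overlap in caps for 66 of them and in stipes for 60, and in both tissues for 59. Expression was low for many, with a mean under 1 CPM for 15 of the 67 and at or above 5 CPM for 38. The fitted interaction was largest for gene model 314277, but no read was counted for it in any late stipe library, so that value depends on the fit and no fold is given. An annotation was at hand for 30 of the 67 (44.8%), against 24.6% of all gene models tested.

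Gene model 611935 encodes a glycoside hydrolase of family GH31, which holds α-glucosidases including those that trim N-glycans. Its expression was 55.2, 50.1 and 61.3 CPM in early and 435, 358 and 359.7 CPM in late caps, but 241, 212 and 123 CPM in early stipes and 44.9, 32.6 and 16.2 CPM in late stipes. All early stipe libraries were above all early caps, and all late stipes were below every other library. The interaction was 5.43 ± 0.46 (SE, n = 3 libraries in each of the 4 groups; edgeR, adjusted p = 1.32e-05), from a rise of 2.82 in caps and a change of -2.61 in stipes on the log2 scale. Gene model 190685, a GH47 enzyme of the α-mannosidases that act on N-glycans, behaved alike. It had 96.6, 96.1 and 138 CPM in early and 621, 572 and 565 CPM in late caps, and 397, 288 and 356 CPM in early stipes and 105, 94.7 and 72.3 CPM in late stipes. Here too the order of the tissues turned, with early stipes above early caps and late stipes below late caps without overlap. Its interaction was 4.36 ± 0.28 (edgeR, adjusted p = 3.19e-06).

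Proteases were the next group. LbPR_A13 (191892), an aspartic protease, had 488, 483 and 839 CPM in early and 2938, 3913 and 3935 CPM in late caps, against 699, 411 and 529 CPM in early stipes and 203, 110.4 and 95.4 CPM in late stipes. The early tissues overlapped, whereas every late cap was above and every late stipe below all early libraries. Its interaction was 4.59 ± 0.47 (edgeR, adjusted p = 3.79e-05). The serine carboxypeptidase 252730, of a family that removes residues from the ends of proteins, had 70.8, 77.8 and 78.1 CPM in late caps and 8.78, 6.27 and 4.46 CPM in late stipes. In the early libraries it had 22.1, 44.3 and 16.9 CPM in caps and 48.5, 39.0 and 21.1 CPM in stipes, which overlap, and its interaction was 3.94 ± 0.51 (edgeR, adjusted p = 1.77e-04).

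Gene models annotated as small secreted proteins, most of them without a known function, supplied 5 of the 67, against 237 of the 16348 tested. The annotation favours gene models regulated in these libraries, so these shares do not cover all small secreted proteins. Gene model 666403 had 4.49, 2.77 and 2.69 CPM in early and 72.4, 95.0 and 84.9 CPM in late caps, and 11.3, 27.2 and 20.1 CPM in early stipes and 9.51, 8.93 and 9.26 CPM in late stipes. The rise in caps, of 4.69 on the log2 scale, carried most of the interaction of 5.77 ± 0.41 (edgeR, adjusted p = 5.05e-06), and the stipe change was -1.08. In the medium caps, which were not in the fit, it had 184, 55.7 and 9.30 CPM, so 1 of these libraries lay above all late caps. The other 4 so annotated were 699309, 573377, 640546 and 674867, with interactions of 4.54, 4.16, 3.89 and 3.29. Early and late stipes overlapped for 573377, and it missed the adjusted threshold when the fit held all 18 libraries (adjusted p = 0.0601, edgeR). MISSP32.1 (300377), named in RefSeq as a mycorrhiza-induced small secreted protein, was also among the 67 but carried no such annotation. It had 394, 338 and 487 CPM in early and 1103, 1063 and 1058 CPM in late caps. In stipes it had 748, 655 and 575 CPM early and 332, 267 and 363 CPM late. Its early and late libraries did not overlap in either tissue, and its interaction was 2.46 ± 0.27.

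Ferritin-like proteins and proteins of redox families were also among the gene models that changed in opposite directions. The ferritin-like proteins 694818 and 609154 belong to a superfamily of di-iron proteins. Gene model 694818 had 29.3, 31.3 and 29.9 CPM in early and 101, 89.3 and 87.8 CPM in late caps, and 44.7, 40.9 and 37.0 CPM in early stipes and 10.48, 8.70 and 8.63 CPM in late stipes. Gene model 609154 had 24.9 ± 0.834 CPM in early and 58.6 ± 3.51 CPM in late caps (mean ± SD, n = 3), and 30.3 ± 2.39 CPM in early stipes and 5.59 ± 0.199 CPM in late stipes. Neither had overlapping early and late libraries in a tissue, and their interactions were 3.78 ± 0.17 and 3.69 ± 0.15 (edgeR, adjusted p = 6.97e-08 and 3.47e-08). The WrbA-like flavoprotein 656726, of a family of quinone reductases, rose by 2.38 in caps and changed by -1.08 in stipes, where its early and late libraries overlapped. The DJ-1/PfpI protein 614616 had 18.9, 79.0 and 27.5 CPM in early stipes, of which 1 library stood far above the other 2, and 15.0, 13.1 and 10.2 CPM in late stipes. In caps it had 17.4, 17.97 and 15.4 CPM early and 77.9, 88.9 and 88.4 CPM late, and its interaction was 4.07 ± 0.56.

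Among the other members, 331339 carries the tentative annotation of a terpenoid synthase. It had 13.7, 81.7 and 57.8 CPM in early stipes and 2.74, 2.84 and 3.19 CPM in late stipes, against 4.06, 4.95 and 4.58 CPM in early and 13.0, 13.8 and 14.4 CPM in late caps. Early stipe 1 was far below the other early stipes, and all were above the late stipes, so the size of the stipe change of -4.12 ± 0.48 is loosely set. Gene model 386721, with a ricin B lectin domain that binds sugars, had 1665, 1755 and 1751 CPM in late caps. In late stipes it had 154, 73.5 and 127 CPM. Early libraries had 445, 600.3 and 393 CPM in caps and 466, 304 and 282 CPM in stipes. Its interaction was 3.43 ± 0.39. The transporter 249285 of the major facilitator superfamily rose from 30.2 ± 4.59 to 101 ± 3.22 CPM in caps and fell from 119 ± 19.9 to 54.2 ± 2.83 CPM in stipes (mean ± SD, n = 3). The cyclin 583039, of the family that activates cell cycle kinases, rose by 1.45 in caps and changed by -1.02 in stipes, where early and late libraries overlapped. Gene models 244979 and 475034, both annotated with phosphopantetheine binding, had nearly the same values, with interactions of 2.84 and 2.75. Reads shared by near-identical copies cannot be told apart here, and these count as uncertain. Gene model 651648, which has no annotation, had an interaction of 4.23 ± 0.57.

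**Figure D2:**
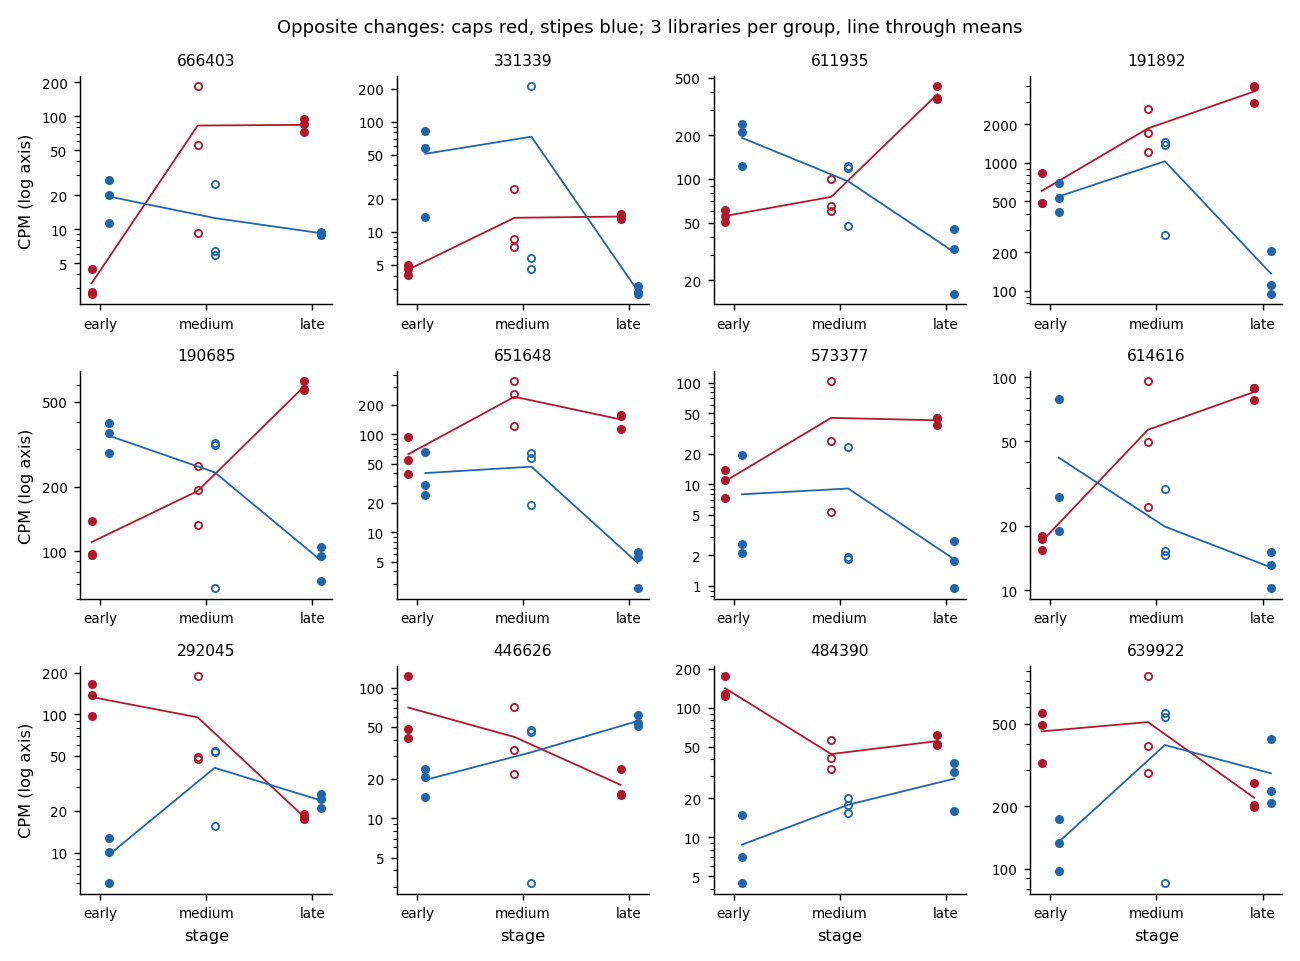
CPM of 12 gene models that changed in opposite directions, by stage, on a log axis, with caps in red and stipes in blue. Points are libraries, lines join the group means, and open circles are the medium libraries, which were not in the fit. The first 8 panels rise in caps and fall in stipes, as 611935 does from 55.6 to 384 CPM in caps and from 192 to 31.3 CPM in stipes, and the last 4 do the reverse.

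The 6 gene models that fell in caps and rose in stipes included a transcription factor. LbCon7 (292045) is a C2H2 zinc finger protein named after Con7, a regulator of spore formation in the ascomycete Magnaporthe oryzae. It had 139, 165 and 96.5 CPM in early and 19.1, 17.5 and 18 CPM in late caps, and 12.8, 10.02 and 5.999 CPM in early stipes and 21.0, 24.2 and 26.3 CPM in late stipes. Early caps were far above all other libraries in the fit, and the tissues had drawn close at the late stage. The interaction was -4.17 ± 0.34 (edgeR, adjusted p = 1.11e-05). The terpene synthase 484390, of the enzymes that cyclize isoprenoids, went from 127, 123 and 176 to 61.8, 51.8 and 52.8 CPM in caps and from 15.0, 6.99 and 4.42 to 37.5, 31.9 and 15.9 CPM in stipes, with an interaction of -3.03 ± 0.53. Its stipe libraries stayed below all cap libraries of the same stage. The SUR7/Rim9-like membrane protein 639922, annotated with the response to pH, had 322, 491 and 564 CPM in early and 259, 202 and 199 CPM in late caps, and 173, 133 and 97.5 CPM in early and 207, 237 and 420.3 CPM in late stipes. Its interaction of -2.14 ± 0.41 missed the threshold when all 18 libraries were fitted (adjusted p = 0.051, edgeR). Gene model 446626, without annotation, was higher in caps early and in stipes late, with an interaction of -3.43 ± 0.50. The remaining 2 of the 6, gene models 586614 and 577805, had means of 0.55 and 0.87 CPM over the 12 libraries, with interactions of -4.49 and -2.90.

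The gene models that follow are described by groups of known function. Annotations were read from those parts of the study's tables that were at hand, which favour gene models regulated in these libraries. Of 4014 annotated gene models tested, 28.2% were called, against 18.2% of all tested, and their median interaction was 0.11. The calls lay above 0 for 816 of these gene models and below 0 for 317, so a larger number of calls above 0 is also the background of each group. Counts of a group are best set beside both shares.

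Transcripts of most of the ribosomal proteins annotated here fell in ageing stipes. Of 47 ribosomal protein gene models, 33 were called, 30 above 0 and 3 below, and 26 of these fell in stipes with no call in caps. Over all 47 the median change was -1.62 in stipes and -0.49 in caps, and the median interaction was 1.24, against 0.02 over all gene models tested. Gene model 698517, for example, had 79.4, 133 and 147 CPM in early and 80.01, 88.3 and 84.1 CPM in late caps, and 77.7, 52.2 and 95.6 CPM in early stipes and 7.20, 6.63 and 5.65 CPM in late stipes. Only the late stipes stood apart, and the interaction was 3.05 ± 0.33 (edgeR, adjusted p = 5.75e-05). In 438455 the late stipes were again the only low libraries, at 1.23, 1.32 and 1.30 CPM, with an interaction of 2.97 ± 0.26. The member with the highest mean CPM, 645304, was not called, with -0.58 ± 0.36.

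Components of mitochondrial respiration went the same way. Of 27 gene models of the respiratory chain and the ATP synthase, 9 were called (33.3%, against 28.2% of annotated gene models). All 9 lay above 0, and 25 of the 27 had an interaction above zero in sign. Their median change was -1.34 in stipes and -0.24 in caps, with a median interaction of 1.32. Gene model 472539, annotated as part of the proton-driven ATP synthase, had 119 ± 37.4 CPM in early stipes and 22.4 ± 5.90 CPM in late stipes (mean ± SD, n = 3), and 140.2 ± 41.6 and 106 ± 3.91 CPM in early and late caps. The ubiquinol-cytochrome c reductase component 671968, of the complex that passes electrons to cytochrome c, had an interaction of 1.74 ± 0.33. An ATP synthase or related ATPase component, 458855, with the highest mean CPM of the 27, gave 1.32 ± 0.32. Mitochondrial carriers, which move metabolites across the inner membrane, had 4 of 14 called, all above 0, and a median interaction of 0.67. This share of 28.6% is near the 28.2% of all annotated gene models tested. Carriers 700454, 707290 and 625241 fell in stipes only, with interactions of 1.72, 1.34 and 1.27. The tricarboxylic acid cycle and malate metabolism had 2 of 15 called and glycolysis 1 of 10. These were a subunit of succinate dehydrogenase, 638670, with 1.47 ± 0.25, and an oxidoreductase, 670672, with 3.12 ± 0.67, both of which fell in stipes only. Enolase (181287) and a dehydrogenase of the malate group (326114) were not called, with -0.69 ± 0.30 and -0.27 ± 0.29. The member of glycolysis called was a glyceraldehyde-3-phosphate dehydrogenase, 184409, on the opposite side. It rose in stipes from 82.4, 48.5 and 60.3 to 245, 146 and 498 CPM, while the caps had 199.7, 175 and 585 CPM early and 199, 212 and 214 CPM late. Its interaction was -2.82 ± 0.66 (edgeR, adjusted p = 0.00603). Without early stipe 3 the counts were 4 of 15 and 2 of 10.

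Several histone transcripts fell in ageing stipes. Of 22 gene models annotated to the nucleosome, the unit of DNA packing, 8 were called, 6 above 0 and 2 below, and 5 fell in stipes only. The median interaction of the 22 was 0.23. A histone H3 gene model, 251730, had 194, 118 and 77.1 CPM in early stipes and 10.8, 5.38 and 2.83 CPM in late stipes, against 129, 256 and 132 CPM in early and 136, 139 and 133 CPM in late caps. Every late stipe was below all other libraries in the fit, and the interaction was 4.03 ± 0.61 (edgeR, adjusted p = 4.63e-04). A second histone H3, 302849, had an interaction of 3.87 ± 0.53. By contrast, HTB16201 (184986) had 0.23 ± 0.27 and was not called. Histone copies are near-identical in sequence, and which copy a read came from is uncertain. The cyclin 581783 fell in stipes from 15.9 ± 5.48 to 2.45 ± 0.284 CPM (mean ± SD, n = 3), with an interaction of 1.69 ± 0.31, and 2 of 5 cyclins were called. Cyclin 658958 was not called, with 0.54 ± 0.36. The septin 173190, of the GTP-binding proteins that form filaments at sites of division, was the single call among 3 septins, with an interaction of 1.29 ± 0.30. Septin 192731 had 0.85 ± 0.30, and it was called without early cap 2 or without early stipe 3. Of 14 kinesins and tubulins 3 were called, all above 0. The kinesins 297780 and 617649, which move cargo along microtubules, fell in stipes only, with interactions of 1.71 and 1.503, and 5 of the 14 were called without late stipe 3.

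Interactions of meiosis gene models lay mostly above 0, whereas those of DNA replication and repair were split. Of 15 gene models of meiosis and recombination, 14 had an interaction above zero in sign, against 8343 of the 16348 tested. Among the 15, 4 were called, 3 of them above 0, and the median interaction was 0.51. The share called, 26.7%, is near the 28.2% of annotated gene models. The count was 2 without early cap 1 or without late stipe 1. Gene model 399758, annotated with meiotic recombination and a DNA-dependent ATPase activity, had 5.94, 7.84 and 6.49 CPM in early and 69.8, 67.2 and 69.6 CPM in late caps, and 6.31, 5.66 and 6.23 CPM in early stipes and 16.6, 11.5 and 8.52 CPM in late stipes. It rose in both tissues, with late caps far above late stipes and an interaction of 2.36 ± 0.27. The MutS-family mismatch repair protein 250266 rose in caps from 3.79, 6.51 and 2.94 to 33.5, 37.5 and 36.5 CPM. In stipes it had 4.97, 4.08 and 3.01 CPM early and 4.66, 2.56 and 0.685 CPM late, which overlap, and the interaction was 3.66 ± 0.65 (edgeR, adjusted p = 0.00124). Of 18 gene models of DNA replication and repair, 5 were called, 2 above 0 and 3 below, with a median interaction of -0.19. In sign, 9 of the 18 lay above zero. Gene model 479094, annotated with DNA repair and transcription, fell in caps only, with -1.66 ± 0.25, and 709133, of the repair and transcription complex TFIIH, had -0.60 ± 0.20 without a call.

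Of 143 carbohydrate-active enzymes tested, which act on the cell wall and on other carbohydrates, 58 were called, 45 above 0 and 13 below, and the median interaction was 0.35. The AA5 copper radical oxidases, which produce hydrogen peroxide, had 5 of 8 called, all above 0, with a median interaction of 2.03. Gene model 151571 had 13.4, 14.9 and 11.2 CPM in early and 160.2, 135 and 133 CPM in late caps, and 30.8, 30.7 and 16.2 CPM in early stipes and 19.95, 19.3 and 11.9 CPM in late stipes. Late caps were above all other libraries, and early and late stipes overlapped. The interaction was 4.06 ± 0.35 (edgeR, adjusted p = 1.36e-05). Gene model 638550 gave 3.71 ± 0.39, with a mean of 848 ± 115 CPM in late caps and 114 ± 31.1 CPM in late stipes (SD, n = 3). By contrast, 460441 rose in both caps and stipes, by 1.94 and 2.11, and its interaction was -0.17 ± 0.33. The GH128 protein 175190, of a family of β-glucanases, fell in stipes only and had an interaction of 1.96 ± 0.35.

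Chitinases of family GH18 went in both directions. Of 7 members 5 were called, 3 above 0 and 2 below. Gene model 231399 rose in caps from 1.36, 1.77 and 1.09 to 24.6, 22.0 and 21.0 CPM and had 1.28, 1.72 and 1.17 CPM in early and 3.52, 2.82 and 2.04 CPM in late stipes, with an interaction of 3.04 ± 0.32. Gene models 191848 and 585735 rose in both tissues, more in caps, with interactions of 1.47 and 1.76. Gene model 310136 rose more in stipes, with an interaction of -1.19, and 301747 had -1.08 with no call within a tissue. Chitin deacetylases of family CE4, which convert chitin to chitosan, were also divided, with 3 of 8 called above 0 and 2 below. Gene models 253920, 296683 and 296684 fell in stipes only, with interactions of 1.03, 1.37 and 1.31. Gene models 293318 and 253895 rose in stipes only, with -1.77 and -1.46. Gene model 307596 was not called, with 0.35 ± 0.35. For 293318, late stipes had 477, 176 and 488 CPM and late caps 99.5, 96.9 and 100.4 CPM, so late stipe 2 was the nearest to the caps.

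Among 18 GH16 enzymes, a family with many β-glucanases, 7 were called, 5 above 0 and 2 below, and the median interaction was 0.21. Gene model 174636 fell in both tissues, but to different ends. It had 120.3, 154 and 113 CPM in early and 49.0, 58.9 and 57.0 CPM in late caps, against 219, 197 and 109 CPM in early stipes and 8.76, 6.72 and 7.65 CPM in late stipes. Its interaction was 3.29 ± 0.31 (edgeR, adjusted p = 2.51e-05). Gene model 393059 fell in stipes only, with an interaction of 2.84 ± 0.32. GH16 member 186533, with the highest mean CPM of the 18, was not called, with -0.36 ± 0.44. Gene model 309729 went the other way and fell in caps from 56.0 ± 7.67 to 9.11 ± 0.296 CPM, with 30.1 ± 4.52 and 21.9 ± 2.05 CPM in early and late stipes (mean ± SD, n = 3). The secreted protein 647030 is of the Kre9/Knh1 type, which takes part in β-1,6-glucan synthesis in yeast. It had 13.5, 24.1 and 16.3 CPM in early and 905, 835 and 894 CPM in late caps, and 63.8, 33.3 and 24.99 CPM in early stipes and 56.9, 60.4 and 29.2 CPM in late stipes. Late caps were far above every other library in the fit, and the interaction was 5.37 ± 0.50 (edgeR, adjusted p = 2.22e-05).

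Expansin-like proteins, related to plant proteins that loosen walls, had 3 of 6 called, all above 0, and a median interaction of 0.81. Gene model 323571 had 2.56, 2.75 and 2.60 CPM in early and 172, 177 and 160.4 CPM in late caps, and 2.98, 2.66 and 2.54 CPM in early stipes and 11.8, 8.48 and 4.08 CPM in late stipes. The early libraries of both tissues lay together, and late caps were far above every late stipe. The interaction was 4.46 ± 0.39 (edgeR, adjusted p = 1.40e-05). Gene model 243825 rose in caps only, with 1.15 ± 0.33. Gene model 306030 was not called, with 0.47 ± 0.33.

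**Figure D3:**
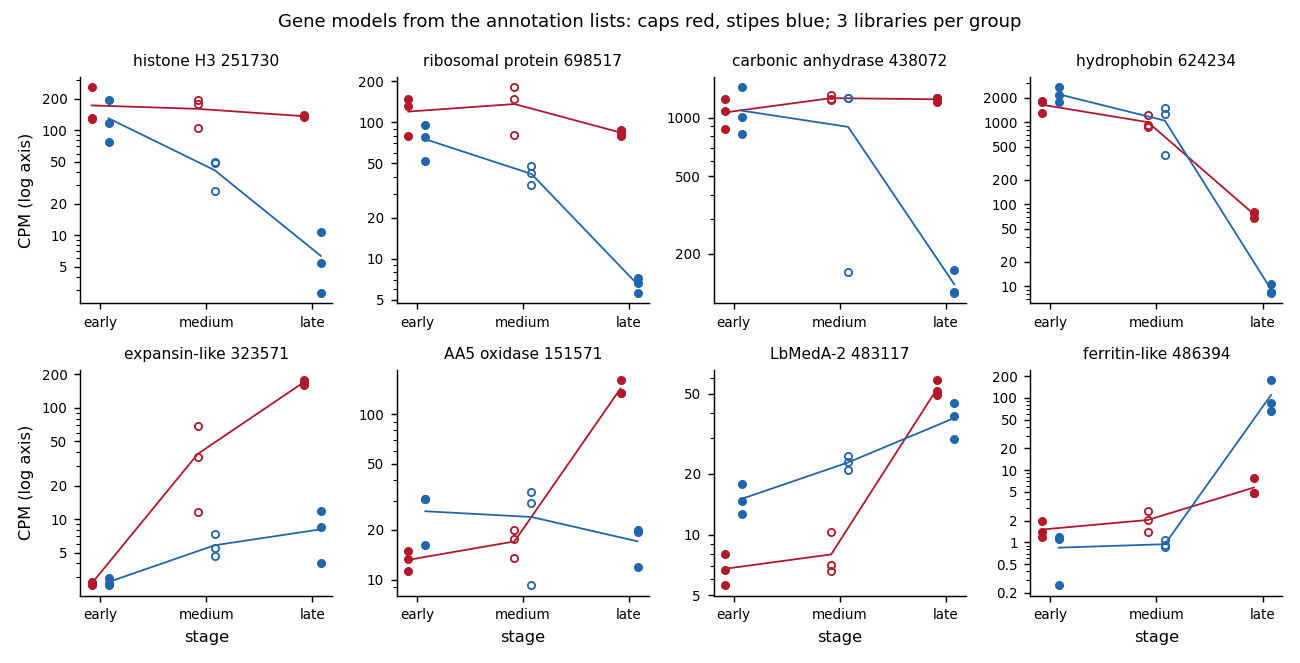
CPM of 8 gene models from the groups described, by stage, on a log axis, with caps in red and stipes in blue. Points are libraries, lines join the group means, and open circles are the medium libraries, which were not in the fit. The histone H3, ribosomal protein and carbonic anhydrase panels fall in late stipes only, the expansin-like and AA5 panels rise mainly in late caps, and the ferritin-like panel rises mainly in late stipes, to 109 CPM against 5.74 CPM in late caps.

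Of 237 gene models annotated as small secreted proteins and tested, 107 were called, 87 above 0 and 20 below, with a median interaction of 0.60. Among these, 36 rose in caps only and 28 fell in stipes only. Gene model 293524 had 1957, 2810.4 and 2417 CPM in early and 7456, 8430.4 and 8171 CPM in late caps, and 2591, 1494 and 1422 CPM in early stipes and 244, 36.5 and 13.0 CPM in late stipes. The late stipes differed widely among themselves, but the highest was still below every other library, and the interaction was 5.99 ± 1.09 (edgeR, adjusted p = 0.00139). The lipase-like small secreted protein 666354 rose in caps from 18.4, 21.0 and 29.1 to 302, 363 and 361 CPM, with an interaction of 4.61 ± 0.55. The value of 7.45 ± 1.69 for 477175 rests on a few libraries, since early stipes had 1.05, 90.4 and 9.77 CPM, and it was not called when all 18 libraries were fitted. In the other direction, 316267 fell in caps from 109, 222 and 187 to 12.7, 8.41 and 8.70 CPM and had 12.5, 10.2 and 5.82 CPM in early and 7.83, 10.7 and 7.95 CPM in late stipes. Its interaction was -3.98 ± 0.42 (edgeR, adjusted p = 4.95e-05). Gene model 301642, with the highest mean CPM of the 237, was not called, with 0.20 ± 0.37.

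Secreted proteases had 13 of 30 called and all 13 lay above 0, with a median interaction of 0.61. LbPR_A12 (191659), an aspartic protease, had 53.4, 45.6 and 42.2 CPM in early and 2850.3, 2619.7 and 2576 CPM in late caps, and 50.5, 55.9 and 41.2 CPM in early stipes and 221, 142 and 39.3 CPM in late stipes. The early libraries of the tissues lay together, and 1 late stipe library stayed at the early level. Its interaction was 4.40 ± 0.61 (edgeR, adjusted p = 2.67e-04). Secreted lipases had 2 of 11 called, 1 in each direction. Gene model 247479 gave 1.17 ± 0.34 and the class 3 lipase 324227 gave -1.18 ± 0.39. These calls rest on single libraries, since the count of lipases was 0 without early cap 1, where 247479 fell to 0.98, and 324227 was not called in 9 of the 12 fits that left out 1 library, nor with late caps 2 and 3 summed (edgeR, adjusted p = 0.058). The fungalysin-type protease 637700, with -0.49 ± 0.35, and the carboxylesterase 187526, with 1.46 ± 0.69, were not called, though 187526 was called without early stipe 3 or without late stipe 1.

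Of 4 gene models annotated as hydrophobins and tested, 2 fell steeply in both tissues, and for 1 of these the fall in stipes was larger. Gene model 624234 had 1299.6, 1837 and 1773 CPM in early and 68.2, 80.6 and 77.7 CPM in late caps, and 2662, 2140.2 and 1777 CPM in early stipes and 8.37, 8.41 and 10.8 CPM in late stipes. It fell by 4.41 in caps and by 7.89 in stipes on the log2 scale, an interaction of 3.48 ± 0.30 (edgeR, adjusted p = 1.32e-05). LbH11 (180892) fell by 7.39 in caps and by 7.76 in stipes, and its interaction of 0.37 ± 0.44 was not called. The changes of LbH13 (335058) and of 389286 were 0.08 and 0.90 in caps, and neither was called for the interaction.

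Carbonic anhydrases, which interconvert carbon dioxide and bicarbonate, had 6 of 9 called, all above 0, with a median interaction of 1.29. They reached this by different routes. Gene model 438072 had 872, 1077 and 1239 CPM in early and 1261, 1260.1 and 1204 CPM in late caps, and 1429.6, 1004 and 820.3 CPM in early stipes and 126, 127 and 164 CPM in late stipes, so that only the late stipes were low. Its interaction was 3.21 ± 0.32 (edgeR, adjusted p = 3.02e-05). Gene model 237880 instead rose in caps from 28.3, 47.4 and 47.8 to 352, 354 and 345 CPM, with 65.7, 61.9 and 57.0 CPM in early and 69.3, 83.5 and 84.8 CPM in late stipes and an interaction of 2.75 ± 0.25. CAN2.1 (299838) was not called, with -1.28 ± 0.72.

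Antioxidant enzymes had 4 of 13 called (2 with all 18 libraries fitted), all above 0, with a median interaction of 0.75. That share of 30.8% is near the 28.2% of annotated gene models. The peroxidase 293829 rose in caps from 65.3 ± 6.48 to 917 ± 61.9 CPM and had 70.0 ± 24.9 and 109 ± 29.4 CPM in early and late stipes (mean ± SD, n = 3), an interaction of 3.18 ± 0.36. LbCu/ZnSOD (303799), a superoxide dismutase, gave 2.11 ± 0.42, and the chloroperoxidase 651575 gave 2.60 ± 0.39. The manganese superoxide dismutases LbMnSOD1, LbMnSOD2 and LbMnSOD4 were not called. Heat shock proteins and chaperones had 10 of 29 called (6 with all 18 libraries), 9 above 0, and 7 of these fell in stipes only. The Hsp20-like small heat shock proteins 675074 and 706828 had interactions of 3.22 ± 0.52 and 3.19 ± 0.76, but neither was called when all 18 libraries were fitted. An Hsp70, 656443, was not called, with 0.05 ± 0.62.

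The AA1 multicopper oxidases (laccases and relatives), which oxidize phenols, had 4 of 9 called, 3 above 0 and 1 below. The largest difference was that of lcc6 (399748), which had 18.3, 169.9 and 101 CPM in early stipes and 8.45, 11.1 and 6.39 CPM in late stipes, against 7.78, 7.03 and 6.01 and 7.46, 8.72 and 7.96 CPM in early and late caps. Early stipe 1 was much nearer to the other libraries than early stipes 2 and 3, the interaction was 3.72 ± 0.76 (edgeR, adjusted p = 0.00278), and it was not called when all 18 libraries were fitted. The member called below 0 was lcc3 (399745), which rose in stipes only and had an interaction of -1.16 ± 0.18. The laccase lcc10 (399752) rose in both tissues, more in caps, with 1.41 ± 0.47. It was not called with late caps 2 and 3 summed (edgeR, adjusted p = 0.0625), nor in 8 of the 12 fits that left out 1 library. The laccase lcc7 (399750) was not called, with -0.32 ± 0.50. The laccase lcc11 (399755), which RefSeq names but the annotated AA1 list does not hold, was added after its values were seen. It had 3.53, 3.20 and 3.73 CPM in early and 2.41, 2.78 and 3.11 CPM in late caps, and 2.90, 2.60 and 2.83 CPM in early stipes and 4.57, 6.93 and 4.15 CPM in late stipes, and its interaction of -1.23 ± 0.27 was called below 0 (edgeR, adjusted p = 0.00411). Early stipe 1 was also the lowest early stipe for 307022, annotated with monooxygenase activity and heme binding. It had 78.2, 446 and 284 CPM in early stipes, 7.85, 7.43 and 5.72 CPM in late stipes, 15.9, 17.6 and 16.5 CPM in early and 23.0, 20.4 and 20.1 CPM in late caps, with an interaction of 5.64 ± 0.62. The WrbA-like flavoprotein 190833, of family AA6, fell in stipes from 14.4, 23.2 and 21.7 to 2.16, 0.964 and 0.759 CPM, with an interaction of 4.48 ± 0.44.

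The lowest interaction of all gene models tested was that of 486394, annotated as ferritin-like and related to ribonucleotide reductase, the enzyme that makes deoxyribonucleotides. It had 1.18, 1.95 and 1.39 CPM in early and 7.68, 4.80 and 4.75 CPM in late caps, against 1.104, 1.18 and 0.254 CPM in early stipes and 85.9, 175 and 66.4 CPM in late stipes. It rose in both tissues without overlap, and every late stipe was above every late cap. The interaction was -5.02 ± 0.64 (edgeR, adjusted p = 1.61e-04). Late stipes were also the highest libraries for 302370, with leucine-rich repeats, and for 477080, with a cytochrome domain. Gene model 477080 had 52.9, 49.7 and 60.7 CPM in late stipes and 8.53, 9.23 and 7.76 CPM in late caps, after 11.2, 11.8 and 14.4 and 13.5, 10.3 and 12.2 CPM in early stipes and caps. Their interactions were -3.004 ± 0.29 and -2.60 ± 0.21. By contrast with 486394, LbRNRbeta (230488), a ribonucleotide reductase subunit by its RefSeq symbol, fell in stipes only. Its change in stipes was -4.04 and its interaction 3.45, at a mean of 136 CPM over the 12 libraries. It was added after its values were seen.

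Named transcription factors moved in both directions. Of 31 tested, 9 were called, 5 above 0 and 4 below, and the median interaction was 0.01. LbMedA-2 (483117), named after Medusa, which controls conidiophore development in Aspergillus nidulans, rose in both tissues. It had 8.02, 5.61 and 6.71 CPM in early and 58.2, 51.6 and 49.2 CPM in late caps, and 14.7, 17.9 and 12.6 CPM in early stipes and 45.1, 38.6 and 29.7 CPM in late stipes, with an interaction of 1.66 ± 0.26 (edgeR, adjusted p = 5.74e-04). Early caps were below early stipes and late caps above late stipes, each without overlap. LbXbp1 (442607), LbNosA (668161), LbMbf1 (636228) and LbMSN4 (681767) had interactions of 1.44, 1.43, 1.25 and 1.07. LbXbp1 was not called by limma-voom nor in 6 of the 12 fits that left out 1 library, and LbMSN4 fell just below 1 without early cap 1 or without late cap 1. Below 0 were LbFst4 (308722), whose Schizophyllum commune namesake is needed for fruiting, LbHom1-1 (324166), LbAtf2 (667862) and LbCon7. LbFst4 rose in stipes from 103, 113 and 89.9 to 291, 251 and 256 CPM and had 120.1, 123 and 114 CPM in early and 97.9, 97.4 and 98.4 CPM in late caps. Its interaction was -1.65 ± 0.17 (edgeR, adjusted p = 5.10e-05). LbHom1-1 rose in stipes from 72.0 ± 11.2 to 181 ± 19.2 CPM, with 67.4 ± 4.28 and 74.6 ± 4.74 CPM in early and late caps (mean ± SD, n = 3). LbFst3 (585149) was not called, with -0.80 ± 0.30.

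Homologues of developmental genes of the mushroom Coprinopsis cinerea had 5 of 11 called, all above 0, with a median interaction of 1.1. The gene model 331690, homologous to eln3, which is required for stipe elongation in Coprinopsis cinerea, had 196, 199.6 and 98.4 CPM in early stipes and 39.3, 38.4 and 30.8 CPM in late stipes. In caps it had 317, 295 and 266 CPM early and 183, 176 and 171 CPM late, so it declined less there, with an interaction of 1.47 ± 0.31 (edgeR, adjusted p = 0.00353). The eln3-like 236702 had 139.6 ± 5.68 and 137 ± 6.81 CPM in early and late caps and fell from 53.4 ± 17.9 to 19.6 ± 6.11 CPM in stipes (mean ± SD, n = 3). Another eln3-like gene model, 192205, was not called, with -0.72 ± 0.51. The thaumatin-like protein 399641 rose in caps from 132, 186 and 92.5 to 392, 409 and 408 CPM, with an interaction of 2.09 ± 0.33. The Cospin2 homologue 674342, a protease inhibitor, started far below stipes in early caps, at 102, 75.6 and 234 CPM against 647, 441 and 521 CPM, and drew near them at the late stage, at 434, 383 and 361 CPM against 449, 548 and 655 CPM. The GATA factor 668080, homologous to NsdD, a regulator of sexual development in Aspergillus nidulans, rose in both tissues, by 2.40 in caps and 1.30 in stipes. Only 3 of the 11 homologues were called without late cap 1 or without late stipe 1, where 668080 fell below 1 and 674342 missed the adjusted threshold. Gene model 668080 also fell below 1 without early cap 2. The call of 674342 was also lost without early cap 1, early stipe 1 or late stipe 2. Of 10 clitocypins and cospins, both families of protease inhibitors, 2 were called. This count rests on single libraries, since it was 6 without early cap 3, 1 when any of early cap 1, early stipe 1, late cap 1, late stipe 1 or late stipe 2 was left out, and 4 with the replicate number as a block. The replicates of several others differed widely, as for 295829, whose interaction of 1.91 ± 1.12 was not called. The clitocypin 318727 gave 0.90 ± 0.83 without a call, and 2.04 with a call without early cap 3 (edgeR, adjusted p = 0.0333).

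Signalling and transport showed no common direction. Of 123 protein kinases 39 were called, 24 above 0 and 15 below, with a median interaction of -0.06. The kinases 387419 and 294445 rose in caps only, with interactions of 3.74 ± 0.82 and 3.52 ± 0.57. Pheromone receptors and G-protein signalling had 5 of 28 called, 2 above 0 and 3 below. The G protein alpha subunit 314065, which relays signals from membrane receptors, had 43.0, 42.5 and 31.5 CPM in early and 115, 89.8 and 92.03 CPM in late caps, against 54.9, 69.4 and 55.4 CPM in early stipes and 425, 347 and 672 CPM in late stipes. It rose in both tissues, more in stipes, with an interaction of -1.64 ± 0.33 (edgeR, adjusted p = 0.00243). A second alpha subunit, 330434, rose in stipes only, with -1.09 ± 0.31, and it lost its call without early stipe 3 or without late stipe 2. With late caps 2 and 3 summed, or without late cap 2 or late stipe 3, 3 of the 28 were called. Major facilitator transporters had 15 of 61 called, 9 above 0 and 6 below. Gene model 478960 fell in caps from 335, 391 and 337 to 92.7, 86.3 and 86.4 CPM and had 75.4, 67.5 and 74.9 CPM in early and 101, 119 and 136 CPM in late stipes, an interaction of -2.69 ± 0.19. Gene model 249110 of the same family rose in caps only, with 3.000 ± 0.27, and 643801 rose in both tissues, more in caps, with 1.86 ± 0.38. ABC transporters had 4 of 22 called, amino acid permeases 3 of 15 and aquaporins 1 of 6. The ABC transporter 601729 rose in stipes from 28.2 ± 10.6 to 85.5 ± 14.4 CPM (mean ± SD, n = 3) and had an interaction of -2.20 ± 0.31, and the aquaporin 456764 rose in caps only, with 2.02 ± 0.55. Further ABC transporters were 399829, which fell in stipes only (2.10 ± 0.54), and 671922, which rose in caps only (1.98 ± 0.58). The amino acid permease 245329 rose in caps only and 254728 in stipes only, with interactions of 1.86 and -1.05. Amino acid permeases had 1 call without early stipe 3 and 5 without early stipe 2, and aquaporins had 2 without early stipe 3 or without late stipe 3. With all 18 libraries fitted, 2 ABC transporters were called.

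Cytochromes P450, a family of monooxygenases, were called in both directions, in 13 of 26, with 7 above 0 and 6 below and a median interaction of -0.07. Gene model 315577 fell in caps from 50.8, 78.4 and 76.0 to 14.6, 12.3 and 12.4 CPM and had 18.7, 18.2 and 12.9 CPM in early and 22.7, 27.3 and 23.6 CPM in late stipes, an interaction of -2.93 ± 0.25 (edgeR, adjusted p = 1.36e-05). Gene model 609922 fell in stipes only, with 2.70 ± 0.82, and it was not called by limma-voom nor without early cap 1 or late stipe 1. Proteins with an F-box, which select targets for ubiquitination, had 11 of 47 called, 6 above 0 and 5 below. Among these, 653903 rose in caps only, with 1.65 ± 0.51, and 325820 in stipes only, with -1.55 ± 0.20. Without late stipe 2 the count of F-box proteins was 7, and 653903 lost its call there and in 3 other fits that left out 1 library. Proteasome and ubiquitin genes had 1 of 29 called, with a median interaction of 0.05. The call was an E2 ubiquitin-conjugating enzyme, 709326, which rose in caps only, with 1.08 ± 0.22, and it lost its call without late stipe 1. The count was 2 or 3 in 6 of the 12 fits that left out 1 library. The AA3 oxidoreductases had 1 of 9 called. It was 487098, which fell in stipes only, with 1.94 ± 0.28, and the count was 3 without early stipe 3. Gene models 693620, which rose in caps only, and 485292, which rose in both tissues, have no functional annotation and had interactions of 4.51 and 4.62. When all 18 libraries were fitted, 243825, 399829, 442607, 609922, 625241, 636228, 667862 and 674342 also lost their calls.

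**Figure D4:**
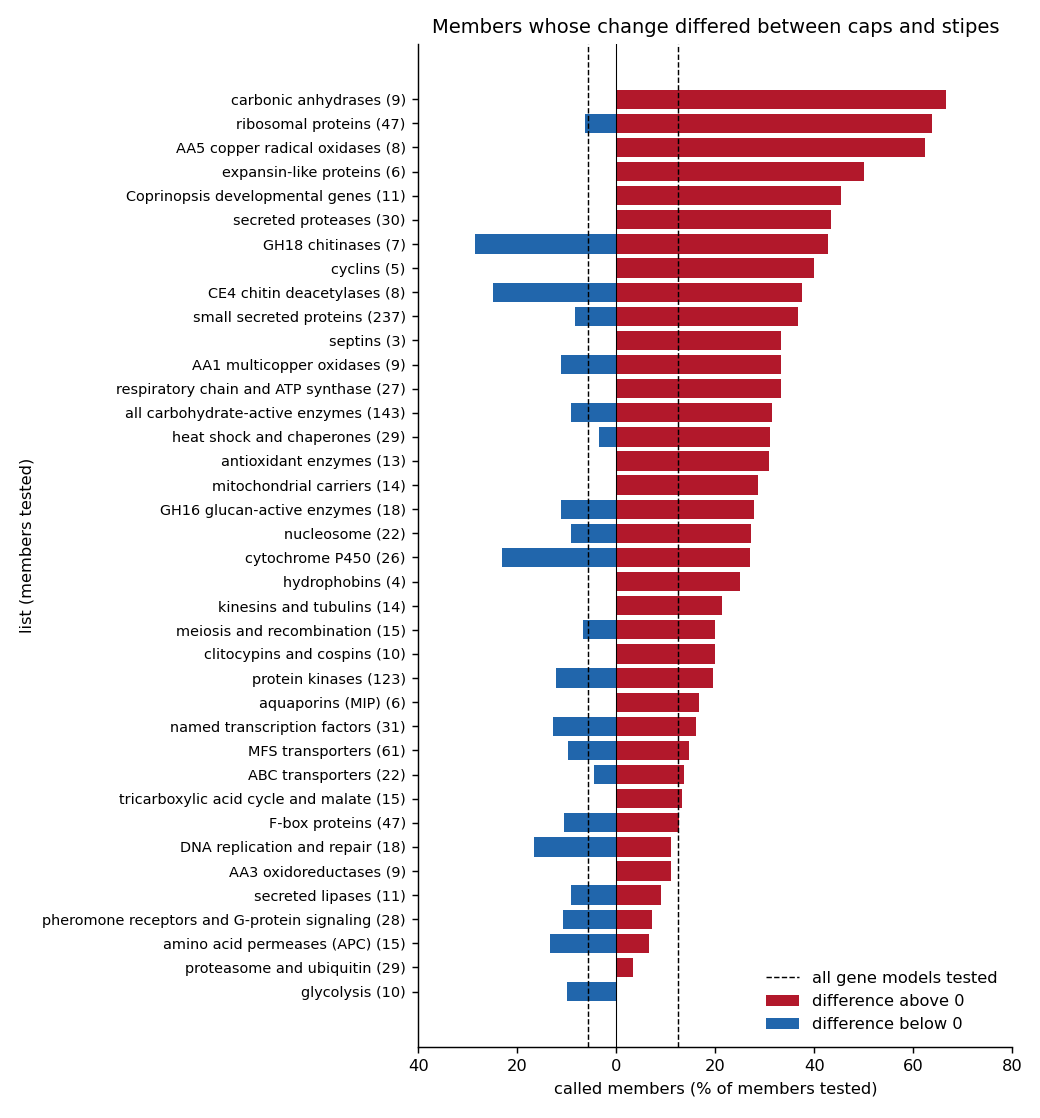
Percentage of the tested members of each group called above 0 and below 0 for the interaction. Dashed lines mark the same percentages over all 16348 gene models, 12.5% above 0 and 5.69% below 0. The 4014 annotated gene models, from which the groups were drawn, had a larger share called (28.2%). Of these, 816 were called above 0 and 317 below 0, which no line marks. Ribosomal proteins, carbonic anhydrases and AA5 oxidases reach furthest above 0, and proteasome and ubiquitin genes have the lowest share in both directions together.

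The medium libraries, which did not enter the fit, lay nearer to the early than to the late libraries for most classes. For gene models that rose in caps only, the mean of the medium caps lay 23.6% of the way from early to late on the log2 scale at the median, with quartiles of 2.97% and 44.6%. For those that fell in stipes only, medium stipes lay at 22% of the way, with quartiles of 9.56% and 36%. For those that rose in stipes only the median was 31.7%, and for those that fell in caps only it was 27.9%. The mean of the medium libraries lay between the early and the late mean for 457 of the 600 gene models that rose in caps only and for 720 of the 876 that fell in stipes only. Of the 67 that rose in caps and fell in stipes, it lay between in caps for 41 and in stipes for 45. Medium stipe 3 stood apart from medium stipes 1 and 2 and was closest to early stipe 2. Medium cap 3 was closest to early cap 2, so these positions rest on unlike libraries. LbCon7 is an example, with 49.3, 47.5 and 188 CPM in medium caps and 53.3, 54.3 and 15.5 CPM in medium stipes. Gene model 331339 had 4.56, 5.72 and 209 CPM in medium stipes.

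Transcript length and expression level are given for the classes as a description, without a test. The median transcript length implied by the deposited counts and RPKM was 804 bases for gene models called above 0, 1029 bases for those called below 0 and 1083 bases for those not called. It was shortest, 728 bases, for those that fell in stipes only. Median expression over the 12 libraries was 16.5 CPM above 0, 9.87 CPM below 0 and 14.7 CPM for those not called, and 26.7 CPM for those that fell in stipes only. The part of transcript length or RNA quality in the stipe falls was not tested.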

How the data were processed

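RNA of caps and stipes at 3 stages was sequenced in 18 libraries, and the 12 early and late libraries were compared. The authors used CLC Genomics Workbench to map trimmed reads to transcripts of version v2 of the L. bicolor genome and deposited 1 unnormalized count per gene model, without stating whether it holds unique or total reads or uses strand. The RPKM values, computed by the authors and deposited beside the counts, served only to derive transcript lengths. Computations used R 4.3.3 with edgeR 4.0.16, limma 3.58.1 and DESeq2 1.42.0. After filterByExpr with the 4 groups, 16348 gene models were scaled by TMM and fitted by edgeR's quasi-likelihood test with a mean for each group, with Benjamini-Hochberg adjustment over all of them. Calls needed a log2 value above 1 in size and an adjusted p under 0.05. The fit was tested on simulated data first. A count of 0 allows up to 3 reads, which covers counting error only. Alternatives were DESeq2, limma-voom, other scalings, filters and thresholds, all 18 libraries, a replicate block, late caps 2 and 3 summed, and each library left out. Groups of function and the rule for gene models described were chosen with earlier results of these data known. The rule took called gene models with a mean of at least 5 CPM and the largest interactions of each class, the 2 largest called members and the member with the highest mean of each group, and all called developmental genes and named transcription factors. Others, such as 694818, 609154, 386721 and 300377, were chosen after their values were seen. RefSeq symbols were matched by number for 329 of the gene models tested, and function came from shortened supplementary tables. The authors' own fold changes and tests were not used.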

Additional observations from a re-analysis of the deposited data

Results flagged for a closer look

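The changes of caps and of stipes were compared by the interaction term itself, which was called for 2968 gene models, and 73 of these changed in opposite directions in cap and stipe. Of those that rose in caps and fell in stipes, with a mean of at least 5 CPM, the 8 annotated gene models with the largest interactions and the largest without annotation had 5.77 for 666403, 5.75 for 331339, 5.43 for 611935, 4.59 for 191892, 4.36 for 190685, 4.23 for 651648, 4.16 for 573377, 4.07 for 614616 and 3.94 for 252730. Of the 4 with such a mean in the other direction, the interactions were -2.14 for 639922, -3.03 for 484390, -3.43 for 446626 and -4.17 for 292045. Groups of 3 libraries are too small for a check for single outlying libraries.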

How the results depend on the processing

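With no minimum size of the change, 5527 gene models had different changes in cap and stipe, 3109 above 0 and 2418 below, 684 changed in opposite directions, and 7516 changed in caps and 8561 in stipes. With an adjusted p under 0.01, 48 changed in opposite directions. A test against the minimum change itself (glmTreat) called 763 interactions, 664 above 0 and 99 below, 11 gene models with opposite changes, 984 changes in caps and 1249 in stipes. Leaving out each library in turn gave 2573 to 3368 interactions, 1823 to 2227 above 0 and 731 to 1219 below, 54 to 96 opposite changes, 2541 to 2766 changes in caps and 3008 to 3764 in stipes. With all 18 libraries fitted, 2384 interactions and 49 opposite changes were called. The 73 gene models with opposite changes kept the sign of their interaction under every alternative that gave a value. They were chosen from these libraries for opposite changes, which makes their interactions large by construction, so this check could hardly fail. The class itself held less well. Of the 73, 47 still changed in opposite directions with all 18 libraries fitted and 11 by glmTreat. When a single library was left out, 49 (without early stipe 2) to 68 (without early stipe 3) did so. The classes by tissue moved with the thresholds. With no minimum size, 957 rose in stipes only, 819 fell in caps only, 399 rose in both, 510 fell in both and 156 had no call in either tissue. By glmTreat, 228 rose and 42 fell in caps only, 21 rose and 269 fell in stipes only, 9 rose and 10 fell in both and 173 had no call in either. With an adjusted p under 0.01, 70 rose in both and 3 fell in caps and rose in stipes. Deviations from the group means correlated from -0.435 to 0.24 between libraries of different groups with the same number (mean -0.0124, 18 pairs). Between libraries of different groups with other numbers they correlated from -0.417 to 0.49 (mean 0.00568, 36 pairs). These pairs also join early with late libraries, so they cannot decide whether a cap and a stipe came from the same basidiocarp. With the replicate number as a block, 2935 interactions and 83 opposite changes were called.

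Of 131 gene models followed, 103 were called. Under the 21 alternatives scored for single gene models, 80 of these were called wherever a value was given. The changed thresholds and glmTreat were not among the 21. The sign turned only for gene models near 0 that were not called. With each library left out in turn, 656443 gave -0.36 to 0.94, 178543 gave -0.44 to 0.059, 399750 gave -0.83 to 0.070, 473733 gave -0.18 to 0.43 and 460441 gave -0.40 to 0.0068. The causes were not tested. At this depth, values of gene models with a mean under 1 CPM rest on few reads, and the 3 libraries per group set the precision of the others.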

Other observations

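Gene families named in RefSeq gave further differences between cap and stipe, and these families were chosen after values were seen. Of 329 gene models tested with a RefSeq symbol, 77 (23.4%) were called, 62 above 0 and 15 below. Of 17 gene models of thioredoxin, glutaredoxin and peroxiredoxin systems, which keep protein thiols reduced, 10 were called and all lay above 0, with a median interaction of 1.15. LbTrx1 (181679), a thioredoxin, fell from 80.4 ± 15.8 to 19.2 ± 1.62 CPM in stipes and had 21.1 ± 1.25 and 32.9 ± 2.18 CPM in early and late caps (mean ± SD, n = 3), an interaction of 2.73 ± 0.20 (edgeR, adjusted p = 6.23e-06). The glutathione reductase LbGR (290991) rose in caps only, with an interaction of 1.97. Of 5 gene models of sterol synthesis, 3 fell in stipes only, namely ERG25p-2 (182669), erg6 (184995) and ERG5 (187166), with interactions of 2.65, 1.78 and 1.68.

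Core histones had 8 of 17 called, 7 above 0 and 1 below. The one below, a histone H3 named HTR16205 (191988), rose in both tissues, by 1.07 in caps and 2.12 in stipes, with an interaction of -1.05 ± 0.24. The linker histones, which bind DNA between nucleosomes, parted. HON16201 (306198) rose in stipes only, with -1.17 ± 0.31, and HON16202 (306200) fell in stipes only, with 2.53 ± 0.35. Near-identical histone copies remain uncertain. Of 5 argonautes, the proteins that carry small RNAs, 2 were called and both lay below 0, AGO16205 (311445) with -1.21 ± 0.27 and AGO16201 (317035) with -1.02 ± 0.24.

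The hydrophobin LbH14 (318421) went against the falling ones. It had 24.7, 20.2 and 27.3 CPM in early and 504, 473 and 455 CPM in late caps, 4.06, 13.9 and 3.56 CPM in early stipes and 34.3, 25.4 and 11.04 CPM in late stipes. It rose in both tissues, more in caps, and early and late stipes overlapped. Its interaction was 2.63 ± 0.66 (edgeR, adjusted p = 0.00873). Of 19 mycorrhiza-induced small secreted proteins, 9 were called, 8 above 0 and 1 below. MISSP19 (295729) fell in stipes only, with an interaction of 2.77 ± 0.43, MISSP23.4 (293729) rose in caps only, with 2.18 ± 0.39, and MISSP23.5 (325402) rose in stipes only, with -1.85 ± 0.45.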
